A study of Mus musculus with 2 samples.

Results

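The S100 and galectin genes described here are S100a4, S100a6, S100a10, S100a11, S100a13, Lgals1 and Lgals3, 7 of the 23679 genes in the count tables, taken as a named list and all measured in both samples. The study sequenced RNA of single ILC3s (group 3 innate lymphoid cells), which lack the antigen receptors of T and B cells and answer the gut flora with IL-22 and IL-17. The cells were sorted from the lamina propria of the small intestine of male C57BL/6 mice aged 18 months and captured on the BD Rhapsody system. There is 1 group with n = 2 samples, replicate 1 under sample tag 6 and replicate 2 under sample tag 12, each from its own library. The labels give no genotype change, no treatment and no younger mice, and they do not say whether the samples were separate animals or pools. The main tests set aside the difference in level between the samples. Their p-values rest on how far contrasts between groups of cells varied from one sample to the other. Spread among mice could not be measured, so these p-values do not extend to other mice.

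S100 proteins are small calcium-binding proteins that mostly pair up, change shape when calcium binds and then grip partner proteins such as annexins and myosin. Several of them are also exported from cells without a signal peptide and act on receptors outside. Galectins are sugar-binding proteins that leave cells by a similar route, bind galactose-bearing chains on surface glycoproteins such as CD45, CD43 and CD7, and cross-link them. In lymphocytes, transcripts of several S100 genes and of Lgals1 are known to be high in effector and memory T cells, and galectin-1 and galectin-3 are studied as brakes on T cell responses.

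Kept cells had 300 or more genes detected and no more than 25% of UMIs from mitochondrial genes, 3337 in replicate 1 and 3840 in replicate 2, holding 6939790 and 6810214 unique molecular identifiers (UMIs, 1 per captured transcript). Cells were parted by UMIs of a few genes. T cells had at least 1 UMI of Cd3d, Cd3e or Cd3g, and were split into Trdc T cells (148 and 135 cells in replicates 1 and 2, more Trdc than Trac, the delta and alpha chain genes of the T cell receptor) and Trac T cells (689 and 608). T cells with equal numbers of both (312 and 374) were in neither gate and so outside the main tests. Cells with no CD3 UMI, called T-zero, were split into the rest (1452 and 2206 cells), Ncr1 cells (608 and 438), which carry the NKp46 gene of one ILC3 subset, and Ccr6/Cd4 cells (128 and 79), with a marker of lymphoid tissue inducer cells and no Ncr1.

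The sort was labelled as ILC3s, yet 34.4% of kept cells in replicate 1 and 29.1% in replicate 2 carried a CD3 UMI. The ILC3 markers Il7r, Il23r, Il22, Kit and Rora were detected in every gate. Levels are given as CPM, the UMIs per 1000000 UMIs of the gate's sum. The 6 ILC3 markers listed, these among them, summed to 4767 to 6379 CPM in the T gates. In the T-zero gates they summed to 7155 to 10194 CPM. Free RNA and other cells differed between the libraries. The immunoglobulin gene Igkc had a UMI in 34.4% to 39.2% of cells in the 5 gates of replicate 1, against 2.53% to 5.25% in those of replicate 2. The 7 stromal markers (such as Col1a1 and Dcn) summed to 534 to 4688 CPM in the gates of replicate 1 and to 26.0 to 120 CPM in those of replicate 2. Epithelial markers summed to at most 17.0 CPM in any gate, and the neutrophil gene S100a8 had no UMI in any kept cell. The libraries shared 303 cell indices, 10 of them between the cells of the 2 tags.

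On the mouse genome (GRCm38, GENCODE M21) the 5 S100 members lie on chromosome 3, all on the plus strand, in a cluster of S100 genes. S100a13 spans 90514435 to 90524581, S100a4 90603771 to 90606045 and S100a6 90612882 to 90624181, so S100a4 ends 6.8 kb before S100a6 begins. S100a5 lies between S100a4 and S100a6. S100a11 (93520488 to 93526287) and S100a10 (93555080 to 93564643) form a second pair, 28.8 kb apart and 2.9 Mb from S100a6. Lgals1 lies on chromosome 15 (78926725 to 78930465) and Lgals3 on chromosome 14 (47367751 to 47386160). S100a1, on the minus strand, begins 42 bases before S100a13, and whether counting used the strand is not given in the sources used here.

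The 250 bases before the transcription start were found in RefSeq (GRCm38.p6) for 5 of the 7 members. They are shown because nearby genes of the cluster, such as S100a4 and S100a6, differed in their pattern over the gates. All are on the plus strand, at chr3:90612644-90612893 for S100a6, chr3:93520246-93520495 for S100a11, chr3:90603520-90603769 for S100a4, chr3:90514185-90514434 for S100a13 and chr14:47373610-47373859 for Lgals3, which is inside the annotated gene because GENCODE begins it further upstream. Capitals mark the motifs searched on both strands: the TATA box (TATAAA), the AP-1 site (TGANTCA), the GC box (GGGCGG) and the core of sites bound by nuclear receptors (AGGTCA).
S100a6: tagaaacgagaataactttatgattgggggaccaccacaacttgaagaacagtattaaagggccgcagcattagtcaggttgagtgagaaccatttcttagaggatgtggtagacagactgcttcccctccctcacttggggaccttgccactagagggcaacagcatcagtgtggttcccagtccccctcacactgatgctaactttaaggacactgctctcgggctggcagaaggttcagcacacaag
S100a11: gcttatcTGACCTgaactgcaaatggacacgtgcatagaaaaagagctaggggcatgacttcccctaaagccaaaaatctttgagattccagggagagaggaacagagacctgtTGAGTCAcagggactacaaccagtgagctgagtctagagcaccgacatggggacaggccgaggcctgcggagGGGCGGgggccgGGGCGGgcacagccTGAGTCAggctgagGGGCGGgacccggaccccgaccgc
S100a4: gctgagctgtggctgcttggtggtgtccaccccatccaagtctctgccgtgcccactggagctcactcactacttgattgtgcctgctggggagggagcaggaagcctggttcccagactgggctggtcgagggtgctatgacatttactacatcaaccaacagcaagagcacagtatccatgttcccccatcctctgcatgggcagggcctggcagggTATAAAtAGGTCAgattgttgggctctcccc
S100a13: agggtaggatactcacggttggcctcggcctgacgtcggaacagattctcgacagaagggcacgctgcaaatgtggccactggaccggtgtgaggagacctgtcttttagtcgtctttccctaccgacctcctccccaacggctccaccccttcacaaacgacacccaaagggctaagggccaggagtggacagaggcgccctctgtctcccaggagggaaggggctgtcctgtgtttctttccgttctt
Lgals3: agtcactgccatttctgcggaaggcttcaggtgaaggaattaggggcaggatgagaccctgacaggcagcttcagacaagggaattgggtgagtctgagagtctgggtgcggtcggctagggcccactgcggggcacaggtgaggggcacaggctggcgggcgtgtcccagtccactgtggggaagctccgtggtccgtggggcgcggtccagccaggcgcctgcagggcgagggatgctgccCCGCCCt
The S100a11 stretch held AP-1 motifs 136 and 38 bases before the start, GC boxes 64, 52 and 24 bases before it and a nuclear receptor core 243 bases before it. The S100a4 stretch held a TATA box 31 bases and a nuclear receptor core 24 bases before the start, and that of Lgals3 a GC box 7 bases before it. No motif overlapped another, and none of the 4 was found in the S100a6 and S100a13 stretches. Of 32851 promoter stretches of the same length, 12.4% held TATAAA, 6.70% TGANTCA, 32.7% GGGCGG and 14% AGGTCA, so none of these motifs is rare. A match describes letters and shows no binding.

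T cells carried more S100a6, S100a11, S100a10, Lgals1 and Lgals3 RNA than T-zero cells of the same sort. S100a6 was 4.13-fold and Lgals1 4.72-fold higher, S100a11 2.04-fold, Lgals3 2.39-fold and S100a10 1.30-fold. These folds weigh the gates of each side equally, whatever their number of cells. In all T and all T-zero cells pooled, S100a6 was at 598 and 468 CPM against 184 and 126 CPM in replicates 1 and 2. Pooled Lgals1 was at 261 and 250 CPM against 86.65 and 59.4 CPM, and Lgals3 at 131 and 195 CPM against 43.8 and 55.4 CPM. S100a13 and S100a4 did not pass the test. The comparison asked how the members differ between the CD3-bearing and the CD3-free cells of the sort, as the mean of the 2 T gates over the mean of the 3 T-zero gates. It was tested on UMI sums per gate and replicate with edgeR's quasi-likelihood test, the replicate as a block and p-values adjusted by Benjamini-Hochberg over all 8604 genes tested. Among the 8596 genes that define no gate, 15.5% passed 0.05 in either direction, 7.77% higher and 7.76% lower in T cells. For the members the count was 5 of 7 higher and 0 lower, with a median log2 ratio of 1.03, against 0.01 over all genes. Without the replicate block 2 of the 7 passed, S100a6 and Lgals1. A gate sum does not tell more cells with a transcript from more transcripts per cell.

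S100a6, or calcyclin, binds calcium and the ubiquitin ligase partner CacyBP. In Trdc T cells S100a6 was at 549.8 CPM in replicate 1 and 372 CPM in replicate 2, and in Trac T cells at 596 and 467 CPM. Among T-zero cells it was at 200 and 135 CPM in the rest, 159.9 and 102 CPM in Ncr1 cells and 130.3 and 32.5 CPM in Ccr6/Cd4 cells. Every T sum lay above every T-zero sum. The log2 ratio of T over T-zero was 2.05 ± 0.11 (SE; edgeR adjusted p = 6.4e-15). The order was Trac T, Trdc T, rest, Ncr1 and Ccr6/Cd4 in each replicate. Trdc T and Trac T cells did not differ past the threshold in the blocked fit, nor did Ncr1 and Ccr6/Cd4 cells, while the rest gate lay above the mean of those 2 gates (edgeR adjusted p = 0.016).

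Lgals1 encodes galectin-1, a secreted dimer that binds CD45, CD43 and CD7 on T cells. Lgals1 was at 173 and 179 CPM in Trdc T cells and 280.1 and 302 CPM in Trac T cells. In the T-zero gates it was at 102.5 and 62.7 CPM in the rest, 64.3 and 52.8 CPM in Ncr1 cells and 29.4 and 19.5 CPM in Ccr6/Cd4 cells, where only 7 and 3 UMIs were counted. Its order was Trac T, Trdc T, rest, Ncr1 and Ccr6/Cd4 in each replicate. The log2 ratio of T over T-zero was 2.24 ± 0.17 (edgeR adjusted p = 2.1e-11), and the T and T-zero sums did not overlap.

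Lgals3 encodes galectin-3, which has a sugar-binding head and a tail through which it forms lattices on the cell surface. Lgals3 was at 19.8 and 47.4 CPM in Trdc T cells (7 and 13 UMIs) and at 152.9 and 240.8 CPM in Trac T cells. The rest had 54.4 and 60.2 CPM, Ncr1 cells 25.4 and 42.5 CPM and Ccr6/Cd4 cells 25.2 and 12.99 CPM (6 and 2 UMIs). High Lgals3 was thus found in the Trac T sums. The Trdc T sum lay below every T-zero sum in replicate 1 and within their range in replicate 2. The log2 ratio of T over T-zero, which averages both T gates, was 1.26 ± 0.27 (edgeR adjusted p = 0.00099). It did not pass with every cell thinned to 1000 UMIs (0.89, edgeR adjusted p = 0.235) or with stricter gates (0.79, adjusted p = 0.228). Lgals3 was higher in replicate 2 than in replicate 1 in 4 of the 5 gates, whereas S100a6, S100a10 and S100a11 were lower there in all of them.

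S100a11 pairs with annexin A1 and takes part in membrane repair. S100a11 was at 686 and 332 CPM in Trdc T cells and 673 and 411 CPM in Trac T cells. It was at 361 and 209 CPM in the rest, 330.3 and 189.5 CPM in Ncr1 cells and 332 and 175 CPM in Ccr6/Cd4 cells. Within each replicate the T sums lay above the T-zero sums, while the replicates differed enough for the Trdc T sum of replicate 2 to reach the T-zero sums of replicate 1. The log2 ratio was 1.03 ± 0.09 (edgeR adjusted p = 2.3e-10).

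S100a10, or p11, holds annexin A2 in a complex under the membrane and does not need calcium for it. S100a10 was at 589.5 and 357 CPM in Trdc T cells and 501 and 349 CPM in Trac T cells, against 447 and 299 CPM in the rest, 510.4 and 301 CPM in Ncr1 cells and 404 and 195 CPM in Ccr6/Cd4 cells. The gates overlapped in replicate 1, where Ncr1 cells exceeded Trac T cells, and did not in replicate 2. The log2 ratio was 0.38 ± 0.09 (edgeR adjusted p = 0.0026), and it was lost when T and T-zero cells entered as 1 sum each (log2 ratio 0.21, adjusted p = 0.058).

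S100a13, which takes part in the export of FGF1 and of interleukin-1 alpha, did not pass the test. It was at 218 and 197 CPM in Trdc T cells and 233 and 187 CPM in Trac T cells, against 214 and 159.9 CPM in the rest, 208.5 and 162 CPM in Ncr1 cells and 239.6 and 123 CPM in Ccr6/Cd4 cells. The log2 ratio of 0.21 had a 95% interval of -0.003 to 0.42 (edgeR adjusted p = 0.22), so a difference of the size of that of S100a6 lay outside it.

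S100a4, or metastasin, binds nonmuscle myosin IIA, the product of Myh9, and is a known marker of fibroblasts and memory T cells. S100a4 was at 93.5 and 14.6 CPM in Trdc T cells (33 and 4 UMIs) and 102 and 63.6 CPM in Trac T cells. T-zero cells had 69.0 and 40.9 CPM in the rest, 62.8 and 27.6 CPM in Ncr1 cells and 126 and 45.5 CPM in Ccr6/Cd4 cells. The T and T-zero sums overlapped in both replicates. The log2 ratio of 0.22 had a 95% interval of -0.17 to 0.61 (edgeR adjusted p = 0.54), but with T and T-zero cells as 1 sum each, which also takes in T cells with equal Trac and Trdc, it was 0.65 (adjusted p = 8.0e-06).

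**Figure D1:**
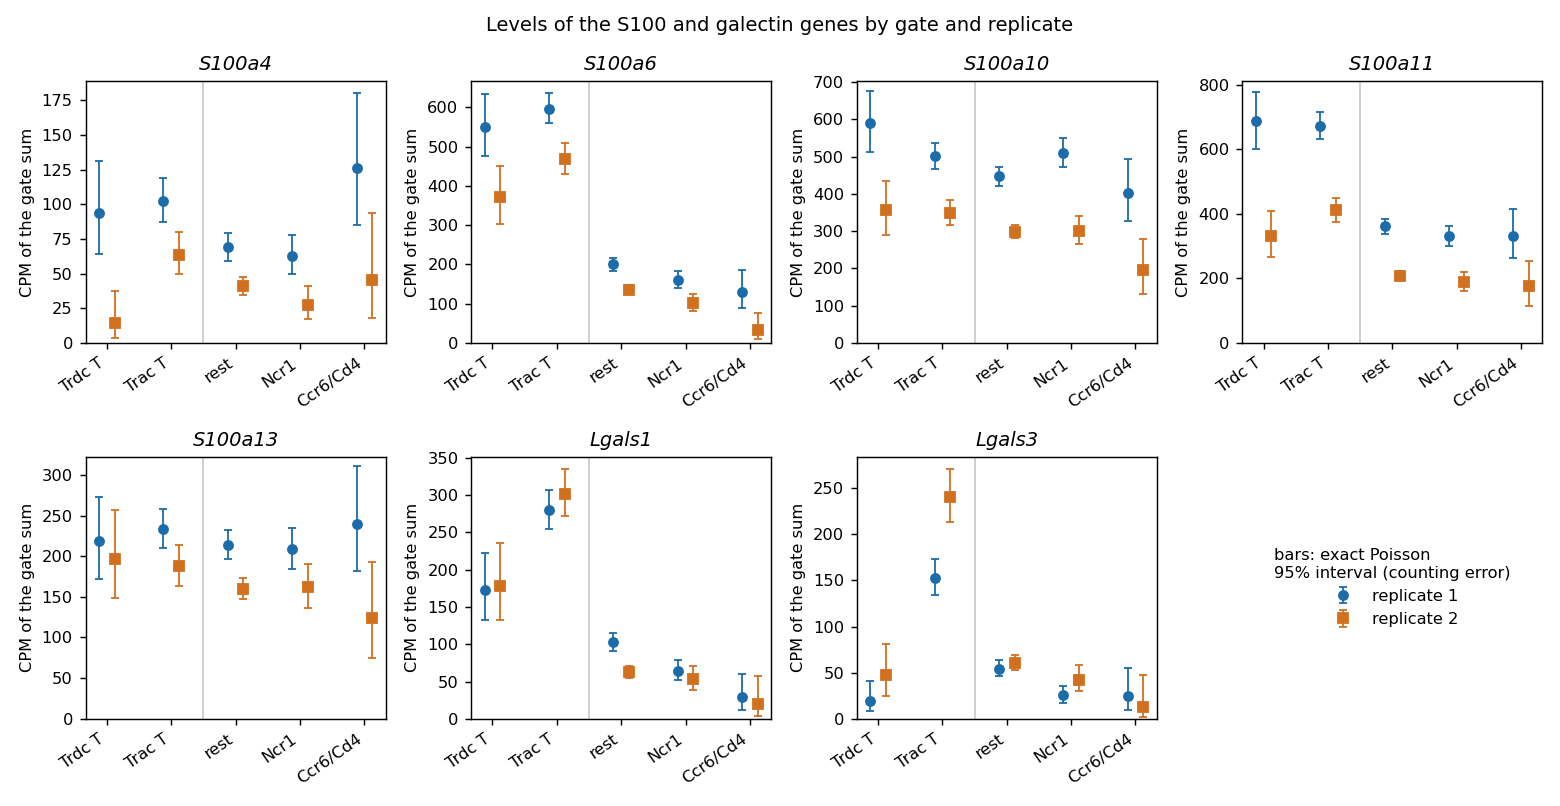
Level of each member (y axis, CPM of the gate's sum, linear from 0, own scale per gene) in the 2 T gates left of the grey line and the 3 T-zero gates right of it; circles are replicate 1, squares replicate 2, and bars the exact Poisson 95% interval of the count. S100a6 and Lgals1 are higher in every T sum than in every T-zero sum, Lgals3 stands out in Trac T cells alone with 152.9 and 240.8 CPM, and S100a13 lies between 123 and 239.6 CPM, with both extremes in Ccr6/Cd4 cells.

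Fibroblast RNA was present in both classes of cells. The stromal list summed to 3715 and 122 CPM in T cells and to 4014 and 102 CPM in T-zero cells of replicates 1 and 2. Markers of B and plasma cells (6 genes) moved with the comparison, with 4243 and 313 CPM in T cells against 7717 and 4870 CPM in T-zero cells. Of these genes Ms4a1 was at 0 in T-zero cells and in the T cells of replicate 2. The part of the list in the calls was not tested. Cells with UMIs of 3 or more stromal markers (204 and 11 cells) had 559 and 862 CPM of S100a6 and 408 and 497 CPM of Lgals1. S100a4, named above as a fibroblast marker, was at 49.4 and 0 CPM in them, against 87.5 and 46.0 CPM in the other kept cells. The exact 95% interval of that 0 reaches 122 CPM. Without the cells with 3 or more stromal markers, a choice made after seeing the data, the log2 ratio of T over T-zero was 2.19 for S100a6 and 2.45 for Lgals1, and all 5 calls held.

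Between the T cells, Lgals3 parted the 2 receptor classes. Lgals3 was 5.97-fold lower in Trdc T cells than in Trac T cells (log2 ratio -2.58 ± 0.29, edgeR adjusted p = 6.7e-07), with -2.87 in replicate 1 and -2.43 in replicate 2 alone. Without the replicate block it did not pass (edgeR adjusted p = 0.181). Markers of other cell types differed between these gates, and the part of plasma cell RNA in the result was not tested. The B and plasma cell list summed to 16422 and 102 CPM in Trdc T cells and 2847 and 433 CPM in Trac T cells, so the replicates went opposite ways, and the stromal list to 964 and 47.4 CPM in Trdc T cells and 2727 and 60.2 CPM in Trac T cells. The call covered 1 of 7 members, lower in Trdc T cells, where 1.04% of all genes passed in either direction, 0.640% higher and 0.396% lower. Lgals1 had a log2 ratio of -0.73 ± 0.19 and missed the threshold (edgeR adjusted p = 0.055), though it passed in 6 of 12 alternative settings, with adjusted p from 0.00068 to 1. S100a6 (-0.21, 95% interval -0.48 to 0.07), S100a10 (0.15, -0.10 to 0.41), S100a11 (-0.10, -0.35 to 0.15) and S100a13 (-0.02, -0.34 to 0.31) did not pass. S100a4, with 4 UMIs in the Trdc T sum of replicate 2, had a log2 ratio of -0.55 (-1.16 to 0.05).

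Among the T-zero cells, the rest gate, with neither an Ncr1 nor a Ccr6 or Cd4 UMI, carried more S100a6, Lgals1 and Lgals3 than the mean of the Ncr1 and Ccr6/Cd4 gates. S100a6 was 1.59-fold higher (log2 ratio 0.67 ± 0.16, edgeR adjusted p = 0.016), Lgals1 2.15-fold (1.10 ± 0.25, adjusted p = 0.011) and Lgals3 2.20-fold (1.14 ± 0.27, adjusted p = 0.017). These were 3 of 7 members higher and 0 lower, where 1.94% of all genes passed, 1.68% higher and 0.268% lower. In the rest gate of replicate 1, 1 cell held 32 of the 149 Lgals3 UMIs. S100a10 (0.13, 95% interval -0.09 to 0.34), S100a11 (0.18, -0.05 to 0.40), S100a13 (0.03, -0.22 to 0.28) and S100a4 (-0.16, -0.58 to 0.26) did not pass. Markers of another cell type moved with this comparison: the 7 stromal genes summed to 4688 and 120 CPM in the rest, 3253 and 36.8 CPM in Ncr1 cells and 534 and 26.0 CPM in Ccr6/Cd4 cells. The B and plasma cell list summed to 8363 and 4725 CPM in the rest, 7316 and 6335 CPM in Ncr1 cells and 2531 and 58.5 CPM in Ccr6/Cd4 cells, and its part was not tested. The T cell list (8 genes, the CD3 genes at 0 by the gate) summed to 914 and 1054 CPM in the rest. It was at 1062 and 970 CPM in Ncr1 cells and 517 and 780 CPM in Ccr6/Cd4 cells. With stricter gates, where T-zero cells had no UMI of the T cell receptor genes Trac, Trbc1 and Trbc2, S100a6 and Lgals3 lost their calls and Lgals1 kept its call. Without the cells with 3 or more stromal markers, S100a6 kept its call (0.69, edgeR adjusted p = 0.026), while Lgals1 (0.91, adjusted p = 0.070) and Lgals3 (0.98, adjusted p = 0.085) did not. With every cell thinned to 1000 UMIs none of the 3 passed, at log2 ratios of 0.59 for S100a6, 0.72 for Lgals1 and 0.99 for Lgals3, and none did with DESeq2 (adjusted p = 0.099, 0.136 and 0.202) or without the replicate block.

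Ncr1 cells over Ccr6/Cd4 cells gave 0 of 7 members past the edgeR threshold, where 5.20% of all genes passed, 2.49% higher and 2.71% lower. Without adjustment 4 of the 7 members had an edgeR p under 0.05, as did 16% of all genes. These were S100a4, lower in Ncr1 cells (log2 ratio -0.92, 95% interval -1.61 to -0.23), and S100a6 (0.62, 0.10 to 1.14), S100a10 (0.45, 0.14 to 0.76) and Lgals1 (1.26, 0.34 to 2.17), higher there. DESeq2 called none of the 7 either. The Ccr6/Cd4 sums were the smallest, with 237874 and 153949 UMIs, and held 31 and 5 UMIs of S100a6 and 6 and 2 of Lgals3, so the intervals are wide.

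**Figure D2:**
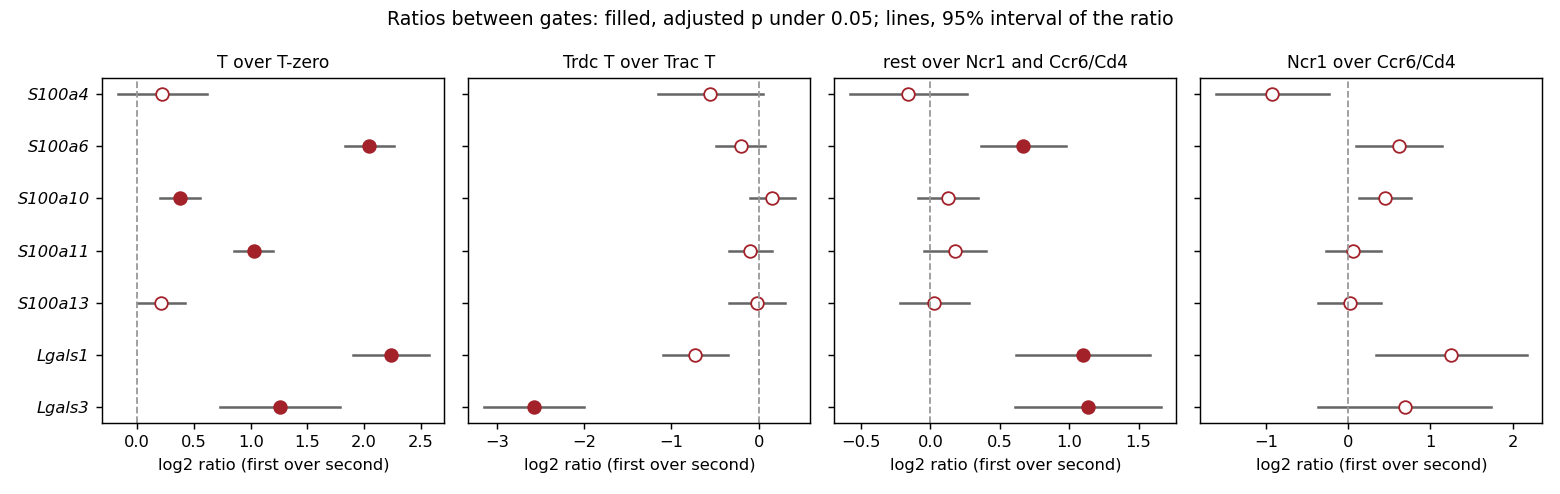
Log2 ratio of each member (x axis, one panel per comparison with its own scale, the first-named gate over the second) with its 95% interval as a line; filled points passed an adjusted p of 0.05 and open points did not. The T over T-zero panel has 5 filled points right of 0, the Trdc T over Trac T panel has Lgals3 alone filled at -2.58, and the Ncr1 over Ccr6/Cd4 panel has none.

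Within the T cells the members were unevenly spread over subsets, which were chosen after their values were seen and are given without a test. Trac T cells were parted into those with a Cd4 UMI (107 and 52 cells), those of the others with at least 2 UMIs of Ccl5, a chemokine gene, and Gzma, the granzyme A gene, together (62 and 30) and those with neither (520 and 526). S100a6 was at 744 and 527 CPM in Trac T cells with neither, against 175 and 85.2 CPM in those with Ccl5/Gzma and 163 and 88.9 CPM in those with Cd4. The values with Ccl5/Gzma and with Cd4 lay within the 32.5 to 200 CPM of the T-zero sums. S100a4, which did not pass between T and T-zero cells, was highest in the same subset, with 130 and 72.6 CPM in Trac T cells with neither, 12.5 and 0 CPM with Ccl5/Gzma and 27.9 and 9.88 CPM with Cd4. The 0 rests on a sum whose exact 95% interval reaches 62.9 CPM.

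Both galectins, S100a10 and S100a11 were also higher in the cells with neither than in the other 2 Trac T subsets. Lgals1 was at 326 and 332.5 CPM there, against 93.9 and 102 CPM with Ccl5/Gzma and 179 and 109 CPM with Cd4. Lgals3 was at 181 and 263 CPM, against 56.4 and 51.1 CPM with Ccl5/Gzma and 79.7 and 128 CPM with Cd4. S100a11 was at 738 and 433 CPM, against 344 and 256 CPM with Ccl5/Gzma and 569.6 and 286.5 CPM with Cd4. S100a10 was at 569.6 and 376 CPM, against 275.5 and 153.5 CPM with Ccl5/Gzma and 319 and 198 CPM with Cd4. S100a13 had no such order in both replicates: its 259 and 182.5 CPM in cells with neither stood beside 175 and 257 CPM in those with Cd4.

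Trdc T cells repeated part of this order. Those with fewer than 2 UMIs of Ccl5 and Gzma (127 and 126 cells) had 637 and 403 CPM of S100a6 and 200.1 and 193.5 CPM of Lgals1. Those with 2 or more (21 and 9 cells) had 56.6 and 0 CPM of S100a6 and 18.9 and 0 CPM of Lgals1, on at most 3 UMIs each. For Lgals3 this order was absent, with 16.7 and 43.4 CPM in the larger subset and 37.8 and 95.5 CPM, on 2 UMIs per replicate, in the smaller one. The 5 Trac and Trdc subsets had median depths of 1798 to 2386 UMIs per cell, and the Ccl5/Gzma subsets were the deepest in each class of both replicates.

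**Figure D3:**
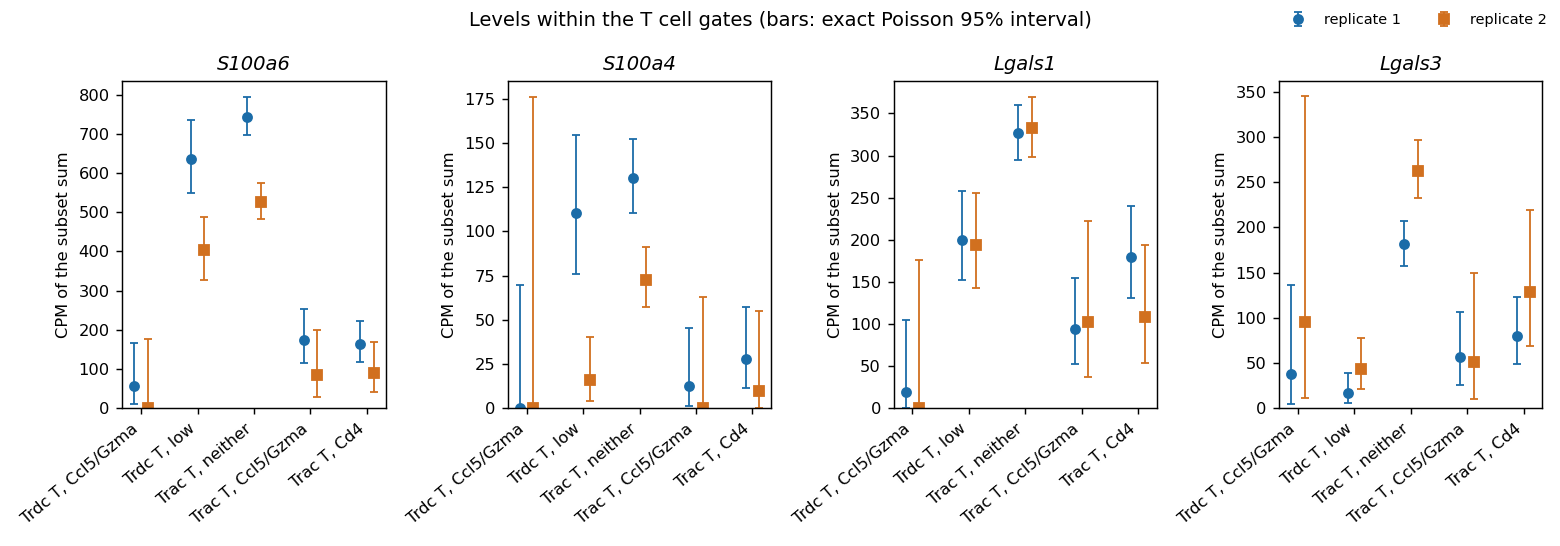
Level of 4 members (y axis, CPM of the subset's sum, linear from 0) in subsets of Trdc T and Trac T cells by Ccl5 plus Gzma and, for Trac T, by Cd4; circles are replicate 1, squares replicate 2 and bars the exact Poisson 95% interval. S100a6 is at 744 and 527 CPM in Trac T cells with neither and at 175 CPM or less in the Ccl5/Gzma and Cd4 subsets, and Lgals3 is at 16.7 and 43.4 CPM in the larger Trdc T subset.

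Per cell, the members differed in how concentrated their UMIs were, seen with every cell thinned to 1000 UMIs (674 and 592 Trac T cells, leaving out 15 and 16 shallower ones). S100a10 was spread almost as independent draws would be, with a variance over mean of 1.11 and 0.99, and the top 5% of cells held 24.9% and 26.1% of its UMIs. Lgals3 had a variance over mean of 1.35 and 2.87, with up to 9 UMIs in 1 cell of replicate 2, and the top 5% of cells held 57.1% and 64.8% of its UMIs. S100a6, at 1.67 and 1.44, lay above S100a10 in both replicates, above Lgals3 in replicate 1 and below it in replicate 2. Few UMIs by themselves put a large share into few cells. The variance over mean depends on the level too where UMIs are unevenly spread. The mean per thinned Trac T cell was 0.145 and 0.245 UMIs for Lgals3 and 0.648 and 0.458 for S100a6. So neither measure alone orders genes of unlike level.

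At that depth 38.1% and 31.6% of Trac T cells had an S100a6 UMI, against 51.4% and 46.7% without thinning. Without thinning, at a median depth of 1880 and 1674 UMIs per kept cell, Igkc, named above for free RNA, had a UMI in 35.3% and 5.10% of Trac T cells. The part of free RNA in the S100a6 shares was not tested. Of thinned Trac T cells with an Lgals1 UMI, 60.6% and 39.7% also had an S100a6 UMI, against 32.1% and 29.2% of those without one. For S100a6 given Lgals3 the shares were 50% and 25.9% with an Lgals3 UMI and 36.6% and 32.5% without one, so the replicates went opposite ways. S100a6 given S100a4 was also uneven, with 69.4% and 22.6% against 34.4% and 32.1%, on 72 and 31 cells with an S100a4 UMI.

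**Figure D4:**
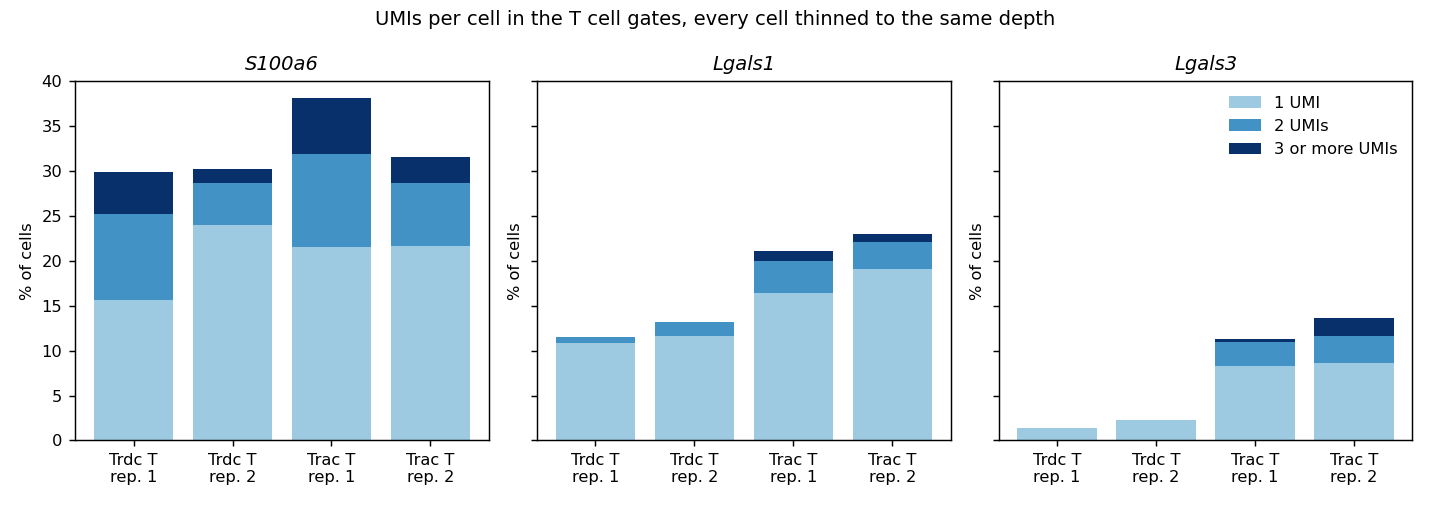
Share of T cells (y axis, percent, linear from 0) with 1, 2 or 3 or more UMIs of S100a6, Lgals1 and Lgals3, in Trdc T and Trac T cells of both replicates with every cell thinned to 1000 UMIs. Lgals3 UMIs were found in 1.36% and 2.33% of Trdc T cells, each with 1 UMI, while 2.03% of Trac T cells of replicate 2 held 3 or more.

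Over the 10 gate sums, with log2(CPM + 10) centred within each replicate, S100a6 and Lgals1 had a Pearson r of 0.967, S100a6 and S100a11 0.941 and Lgals1 and S100a11 0.923. S100a4 stood apart from S100a6, which lies near it on chromosome 3, at -0.037, and Lgals3 reached 0.776 with Lgals1 and 0.698 with S100a6. The S100a4 sums of replicate 2 held only 4 UMIs in Trdc T cells and 7 in Ccr6/Cd4 cells, so its r is imprecise. These are descriptions over 10 sums that share 2 libraries and the T against T-zero contrast. Among 3122 genes with a mean of at least 50 CPM, those most like Lgals1 were Vsir, a checkpoint receptor gene, Nlrc5, Zbtb16, which encodes the factor PLZF of innate-like lymphocytes, S100a6 and Nr3c1, at r of 0.960 to 0.977. Among those most like S100a11 were the ribosomal protein genes Rpl32, Rps27a and Rpl35 (0.983 to 0.990). Most like S100a6 were Gm8186, Cnot6l, Gm10076, Rpl23a and D8Ertd738e (0.976 to 0.987), of which the Gm genes may share reads with copies elsewhere. S100a10 went with Ywhah, Ptprcap, Itgb2, Aes and Snrpd3 (0.954 to 0.958), and among those most like S100a13 were Cdt1, Phc3, Mrpl52 and Slu7 (0.951 to 0.974). For Lgals3 the likest genes were Rftn1, Cpm, Sdf2, Kdm5c and Gm2000 (0.880 to 0.931), and for S100a4 Mllt10, Pigx, Znrf1, Pik3ca and Ptges3 (0.839 to 0.888).

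The other S100 and galectin genes were mostly rare in these cells. Of 22 listed, 21 were in the tables and 6 had enough UMIs to be tested. S100a8, S100b, S100g, S100z and Lgals12 had 0 UMIs in both replicates, and S100a9, S100a5, S100a7a and S100a14 had 1 UMI each in all. In T over T-zero cells 0 of the 6 were higher and 1 was lower, where 7.76% of all genes were lower. It was S100a1, which neighbours S100a13 on the opposite strand. S100a1 was at 19.8 and 7.30 CPM in Trdc T cells and 18.1 and 6.78 CPM in Trac T cells, against 53.3 and 37.6 CPM in the rest, 38.9 and 45.9 CPM in Ncr1 cells and 67.3 and 71.4 CPM in Ccr6/Cd4 cells. Its log2 ratio was -1.83 ± 0.28 (edgeR adjusted p = 1.2e-05), so S100a1 fell in T cells while no S100 member did. Lgals9, the galectin that binds TIM-3, was at 108 and 47.4 CPM in Trdc T cells and 87.3 and 52.6 CPM in Trac T cells, against 79.9 to 114 CPM in the T-zero gates of replicate 1 and 63.2 to 84.4 CPM in those of replicate 2, and did not pass. None of the 6 passed in the other 3 comparisons.

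The annexins and other S100 partners moved apart from one another between T and T-zero cells. Of 18 listed, 11 were tested, 1 was higher and 3 were lower, with a median log2 ratio of -0.17, where 7.77% of all genes were higher and 7.76% lower. So 1 of 11 is near the share over all genes. Anxa2, whose product binds S100a10, was higher (0.80 ± 0.24, edgeR adjusted p = 0.022), at 53.9 and 51.1 CPM in Trdc T cells and 53.7 and 45.8 CPM in Trac T cells. The T-zero gates had 49.99 and 41.7 CPM in the rest, 48.6 and 47.1 CPM in Ncr1 cells and 8.41 and 19.5 CPM in Ccr6/Cd4 cells (2 and 3 UMIs), the one gate that stood below the others. Anxa1, whose product binds S100a11, had no UMI in Trdc T cells and 9.36 and 1.70 CPM in Trac T cells, against 34.7 and 11.2 CPM in the rest, 23.2 and 12.6 CPM in Ncr1 cells and 16.8 and 19.5 CPM in Ccr6/Cd4 cells, and was lower (edgeR adjusted p = 0.00033). Anxa5, which binds phosphatidylserine, was lower too, with a log2 ratio of -0.67 ± 0.12 (edgeR adjusted p = 0.00012), as was Anxa4 (-1.50 ± 0.49, adjusted p = 0.035). Cacybp, the S100a6 partner, and Myh9, the S100a4 partner, had log2 ratios of -0.10 and 0.16 and did not pass. In Ncr1 over Ccr6/Cd4 cells Anxa2 (1.94 ± 0.53, edgeR adjusted p = 0.025), Anxa6 (0.88 ± 0.19, adjusted p = 0.0029) and Ahnak (0.53 ± 0.16, adjusted p = 0.040), whose giant product is held by the S100a10 complex, were higher, and none of the list passed in the other 2 comparisons.

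Genes of the galectin ligands and of the enzymes that build or cap their sugars moved both ways in T over T-zero cells, with 14 of 15 tested, 3 higher and 3 lower, where 7.77% of all genes were higher and 7.76% lower. Higher were Ptprc, the CD45 gene (0.71 ± 0.07, edgeR adjusted p = 1.0e-08), Selplg, the PSGL-1 gene (0.34 ± 0.08, adjusted p = 0.0027), and B4galt1, which adds galactose to such chains (1.00 ± 0.12, adjusted p = 1.2e-07). Selplg was at 918 and 937 CPM in Trdc T cells and 785 and 985 CPM in Trac T cells. The rest had 766 and 963 CPM and Ncr1 cells 954 and 936 CPM. Only Ccr6/Cd4 cells, at 404 and 598 CPM, stood below the other gates. Lower were Spn, the CD43 gene (-0.78 ± 0.10, edgeR adjusted p = 8.7e-07), Lamp1 (-0.44 ± 0.11, adjusted p = 0.0066) and St3gal1, which caps galactose with sialic acid (-1.28 ± 0.21, adjusted p = 4.5e-05). B4galt1 was at 162 and 259 CPM in Trdc T cells and 229.6 and 260.3 CPM in Trac T cells, against 104 to 114 CPM in replicate 1 and 112.5 to 129.9 CPM in replicate 2 of the T-zero gates, with no overlap. In Trdc T over Trac T cells Cd7, a receptor for galectin-1, was higher (1.46 ± 0.22, edgeR adjusted p = 6.8e-05), at 417 and 175 CPM in Trdc T cells and 177 and 44.9 CPM in Trac T cells. Cd2 was at 2.83 and 3.65 CPM in Trdc T cells (1 UMI each) and at 91.1 and 66.1 CPM in Trac T cells, and was lower (edgeR adjusted p = 1.4e-05). In Ncr1 over Ccr6/Cd4 cells Selplg was higher (0.99 ± 0.14, adjusted p = 1.2e-05 by edgeR), and Cd7 (-0.94 ± 0.22, adjusted p = 0.0088) and St3gal1 (-1.10 ± 0.29, adjusted p = 0.021) were lower, and none of the list passed in the rest over Ncr1 and Ccr6/Cd4.

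Genes known to go with S100a4 and Lgals1 in effector and memory lymphocytes were mostly higher in T cells, 10 of the 14 tested, with 2 lower and a median log2 ratio of 0.52, where 7.77% of all genes were higher and 7.76% lower. Among the higher ones were Vim, the vimentin gene (0.84 ± 0.11, edgeR adjusted p = 6.7e-07), Crip1 (0.66 ± 0.11, adjusted p = 3.0e-05), Ccr2, a chemokine receptor gene (3.29 ± 0.17, adjusted p = 3.1e-15), and Cd52 (0.90 ± 0.07, adjusted p = 3.6e-11). Ccl5 (3.03 ± 0.15) and Gzma (3.13 ± 0.15) were higher as well, and the sums of both were higher again in Trdc T over Trac T cells (1.60 ± 0.18 and 0.94 ± 0.17, edgeR adjusted p = 6.7e-07 and 0.0013). The share of cells with a UMI was not. Ccl5 was found in 16.9% and 6.67% of Trdc T cells against 20.3% and 8.88% of Trac T cells. Gzma was found in 8.78% and 5.185% against 9.72% and 5.76%. Lmna, the lamin A gene, and Tagln2, which binds actin, were lower (-0.80 ± 0.17 and -0.21 ± 0.07, edgeR adjusted p = 0.00078 and 0.028). Ccl5 and Gzma define a subset in which S100a6 and S100a4 were low, so this list joins genes that did not share one pattern among the T cells. Crip1 was the 1 gene of the list higher in the rest over Ncr1 and Ccr6/Cd4 (0.54 ± 0.13, edgeR adjusted p = 0.023), and in Ncr1 over Ccr6/Cd4 cells Crip1, Tmsb10, Cd44 and Cd52 were higher and Lmna was lower (-1.63 ± 0.25, edgeR adjusted p = 3.2e-05).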

How the data were processed

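Per the file headers, the deposited values are error-corrected UMI counts for each cell, not normalized, from version 1.8 of BD's Rhapsody pipeline for whole transcriptomes, run by the authors on each library with a reference of GRCm38, PhiX and GENCODE M19 genes. The deposited tag call of each cell, another file of the same pipeline, has no unit. HISAT2 2.0.5, Bowtie2 and the builds mm10 and GRCm38.p6 also stand in the submitters' processing notes, with no role. Libraries held 15793 and 16531 cells, of which 3427 and 3954 carried the sample's own tag (tags 6 and 12). No use was made of cells of other tags, of those the pipeline called multiplets (572 and 987) or of undetermined ones (1128 and 674), and no doublet caller was run. A gene in 1 of the tables alone was read as 0 in the other, and 19031 genes were in both.

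The members, gene lists and tests were chosen with earlier results of these data known. Members were named in every comparison, genes of the lists where they passed or partner a member, and likeness took the 5 genes with the highest r. Some genes of these lists are not reported here. Gates of 1 sample share a library, so replicate was a block by design. Sums (5 gates in each of 2 replicates) were tested with edgeR 4.0.16 in R 4.3.3 (TMM, filterByExpr, quasi-likelihood, 4 residual degrees of freedom, common dispersion 0.00727), with contrasts over the 8604 genes kept. Standard errors were derived from the ratio and its F statistic, and 95% intervals of ratios assume normality, which may make them too narrow. Ratios of single replicates used a prior count of 2. Intervals of levels are exact Poisson and cover counting error only. CPM are without TMM scaling. Sums of 3 UMIs correspond to 0.817 to 19.5 CPM in the gates. The fit was tested on simulated counts. Alternatives were DESeq2 1.42.0, no filter on low counts, no replicate block, single replicates, looser and stricter cell filters, thinning, stricter gates, and sums without cells of other types or without the largest 5% of cells. Python 3.11.15 with numpy 2.4.6, scipy 1.17.1 and pandas 2.3.3 made the sums.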

Additional observations from a re-analysis of the deposited data

How the results depend on the processing

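No called member changed sign under any alternative. Of the values of single members, 336 stayed on the same side of the threshold or, for ratios of single replicates, within the spread. Another 10 newly passed the threshold, 25 no longer did and 21 ratios of single replicates moved by more than the spread. A value that passed in neither setting could change sign and still count among the 336. Lgals1 in Ncr1 over Ccr6/Cd4, for example, had log2 ratios of -0.51 to 1.53 over the alternatives (main 1.255). Without the replicate block, so that the difference between libraries counts as noise, the members called fell to 2 of 7 for T over T-zero (S100a6 and Lgals1, main 5), 0 for Trdc T over Trac T (main 1), 0 for the rest over Ncr1 and Ccr6/Cd4 (main 3) and stayed 0 for Ncr1 over Ccr6/Cd4. All genes called then numbered 400 for T over T-zero (main 1335), 2 for Trdc T over Trac T (main 89), 0 for the rest (main 167) and 11 for Ncr1 over Ccr6/Cd4 (main 447).

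S100a6 and Lgals1 kept their calls in T over T-zero under all 12 alternatives, with log2 ratios of 1.81 to 2.27 and 1.84 to 2.60. Lgals3 lost its call there with no block, thinning (0.89, edgeR adjusted p = 0.235) and stricter gates (0.79, adjusted p = 0.228), S100a11 with no block and S100a10 with no block and as 1 sum per side. Lgals3 in Trdc T over Trac T held in 11 of 12, and the members called were 2, with Lgals1 added, with no filter, thinned, without cells of other types, without the largest cells, with only the gates compared, and without stromal cells.

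For the rest over Ncr1 and Ccr6/Cd4 the members called were 0 with DESeq2 and thinned, and 1 with stricter gates, without cells of other types, without the largest cells and without stromal cells. For Ncr1 over Ccr6/Cd4 the number was 1 with the stricter cell filter and stricter gates (S100a6, 0.92 and 1.68) and 1 with Cd4 alone (S100a10, 0.93). The cause was not tested. Only the gates compared is the main fit itself for T over T-zero.

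Counts of all genes called moved by over 1.5 times as well. For the rest comparison (main 167) they were 23 with DESeq2, 291 with no filter, 53 thinned, 81 with stricter gates, 71 without cells of other types, 73 without the largest cells and 46 without stromal cells. For Trdc T over Trac T (main 89) they were 55 with DESeq2, 58 thinned, 44 with stricter gates and 136 with only the gates compared, and for Ncr1 over Ccr6/Cd4 (main 447) 297 thinned and 246 with stricter gates. Leaving out stromal cells was chosen after seeing the data.

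Single replicates, without a test, gave log2 ratios of T over T-zero of 1.87 and 2.43 for S100a6, 1.94 and 2.49 for Lgals1, 0.79 and 1.69 for Lgals3 and 0.30 and -0.24 for S100a4. Sums of Ccr6/Cd4 cells down to 2 UMIs limit what the comparisons with that gate can detect.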

Other observations

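T cells with equal numbers of Trac and Trdc UMIs, mostly with none of either, were in no gate of the main comparisons. In these 312 and 374 cells S100a6 was at 627 and 508.5 CPM, Lgals1 at 261 and 186 CPM, Lgals3 at 138 and 174 CPM and S100a4 at 119.8 and 78.7 CPM in replicates 1 and 2. S100a6 was above its Trac T sum in each replicate, and the Lgals3 sums were nearer to Trac T than to Trdc T cells. In replicate 1, however, 1 cell held 33 of the 92 Lgals3 UMIs.

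In cells without a CD3 UMI, those of the rest gate with at least 2 UMIs of Ccl5 and Gzma numbered 37 and 44. Their Lgals1 was at 86.3 and 45.4 CPM on 6 and 4 UMIs, against 103 and 63.1 CPM in the other cells of that gate. The exact Poisson intervals, 31.7 to 187.8 and 12.4 to 116.1 CPM, are too wide to tell these apart. S100a6 was lower in these cells, at 100.7 and 56.7 CPM against 202.5 and 137.3 CPM, on 7 and 5 UMIs. S100a4, S100a10 and S100a13 were lower in both replicates too. For S100a11 and Lgals3 the replicates went opposite ways. These differences were not tested.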
